A study of Homo sapiens with 18 samples.

Results

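Transfection of PANC-1 cells with PKR siRNA 2 was compared with transfection of the same cell line with control siRNA, gene by gene, in 6 of the 18 RNA-seq libraries of the series (3 for each siRNA). The genes described are all those whose mean over the 9 libraries of the siRNA table reached 10 normalized counts, which were 10593 of the 26485 genes listed. PANC-1 is an established line of human pancreatic ductal adenocarcinoma cells with an epithelial label in the sample records. The study asked how lowering or inhibiting PKR alters gene expression in such cells, and it also held PKR siRNA 1, which is used here only as context, and the inhibitor C16. RNA was collected 72 h after transfection, and the control cells had gone through the same transfection with a control siRNA of unstated sequence. Polyadenylated RNA was sequenced, so the values give the amount of a transcript relative to all others in a library. In such bulk samples fewer cells that make a transcript and less of it per cell cannot be told apart.

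PKR, the product of EIF2AK2, is a kinase of the cytoplasm that is switched on by paired RNA strands, as many viruses make them. Active PKR phosphorylates the alpha subunit of the initiation factor eIF2, which slows general translation and favours translation of ATF4, a transcription factor of the integrated stress response. PKR has also been linked to signalling through NF-kB, interferon and MAP kinases. An siRNA lowers its target when the guide strand, held by an Argonaute protein, pairs with the mRNA along its whole length. Pairing of only the seed of the guide, its bases 2 to 8, with the 3′ UTR of another mRNA can lower that mRNA as well, in the way of a microRNA.

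The site of PKR siRNA 2 is shown because it gives the place of pairing in EIF2AK2 and which seed the siRNA carries into the cell. It lies in the coding sequence, across the junction of exons 13 and 14 of the 17 exons of the canonical transcript in GENCODE release 44 (hg38, minus strand). The exon 13 part is chr2:37119959-37119967 and the exon 14 part is chr2:37114850-37114859. Of the 14 transcripts annotated for the gene, 10 hold the site. Capitals mark the seed of the guide and the 7 bases of the mRNA that pair with it, both written 5′ to 3′.
target site in EIF2AK2: gatcttaagccAAGTAATa
guide strand, complement of the site: uAUUACUUggcuuaagauc

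EIF2AK2 was lower in all 3 libraries of PKR siRNA 2. Normalized counts were 95.5, 93.5 and 103 in the control libraries and 7.96, 8.58 and 9.40 with PKR siRNA 2, so that the groups lay far apart. All values after ± are SDs of 3 libraries. Means were 97.4 ± 5.21 and 8.65 ± 0.73 (SD, n = 3), and the log2 fold change was -3.35 with a standard error of 0.25 (limma, adjusted p = 2.58e-20). An exact permutation test of 3 libraries against 3, two-sided, gave p = 0.1, the smallest that this design allows. PKR siRNA 1 gave -3.04, and the PKR siRNAs differed by -0.31 with a standard error of 0.25 (limma, adjusted p = 0.282). The other kinases of eIF2 did not move with it as a group. EIF2AK3, which encodes the endoplasmic reticulum kinase PERK, rose (0.90), though 16.8% of its exon bases are overlapped by a gene of the other strand. EIF2AK1, the heme-regulated kinase, was at 0.08 and EIF2AK4, the amino acid sensor GCN2, at -0.28. In the list of eIF2 kinases, phosphatase subunits and PKR cofactors, EIF2AK2 and EIF2AK3 were the only calls among 24 members, with a median of -0.08. PPP1R15A, which directs phosphatase to eIF2, was at 0.48, and TARBP2, which binds PKR and Dicer, at -0.41, neither past the thresholds.

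The 6 libraries held 1602694 to 1848343 reads on genes. Correlations of log2 values over all tested genes were 0.981 to 0.983 within a group and 0.916 to 0.921 between control siRNA and PKR siRNA 2, so the groups separated. No library stood apart from its group. The single most counted gene took 1.28% to 1.34% of the reads in the control libraries and 1.66% to 1.72% with PKR siRNA 2. Replicate libraries differed by slightly more than sampling noise. Chi-square over genes per degree of freedom, 1 under sampling alone, was 1.03 to 1.23 for control pairs and 1.06 to 1.16 for PKR siRNA 2 pairs. Whether they came from separate cultures is not stated, so SDs and p-values measure the spread between these libraries, which may be technical. KRT8, KRT18, KRT19 and VIM were high in all 6 libraries, whereas PTPRC, CD3E, CD3D and MS4A1 of the immune markers and DCN, PDGFRA, FAP and COL1A2 of the fibroblast markers were at 0. Of the other markers of these lists, CD68 reached 147 to 204 normalized counts, COL1A1 82.1 to 115, and none of the rest exceeded 20. Summed over the 10 fibroblast markers, the level was 94.5 to 135 in control and 145 in each PKR siRNA 2 library, and over the 10 immune markers 157 to 183 and 197 to 210. The part of these differences in other results was not tested.

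Under the thresholds of the study, an adjusted p under 0.05 and a change of more than 1.5-fold, 1140 genes rose (10.8% of those tested) and 1353 fell (12.8%). These shares are the background for each group of genes below, in which "rose" and "fell" refer to both thresholds. Of the genes that rose, 409 changed more than 2-fold (3.86% of those tested), and of those that fell, 557 did (5.26%). Beyond 4-fold there were 51 rises (0.481%) and 57 falls (0.538%). The median log2 fold change over all tested genes was -0.01. All 3 PKR siRNA 2 libraries lay above the 3 controls for 25.9% of the genes tested and below them for 28.4%, together 54.3%. PKR siRNA 1, against the same controls, raised 8.53% and lowered 12.6% of the genes past both thresholds, and 31.7% of all genes differed between the PKR siRNAs. All fold changes are on the scale of log2 (normalized count + 1), which understates changes of genes with few reads.

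**Figure D1:**
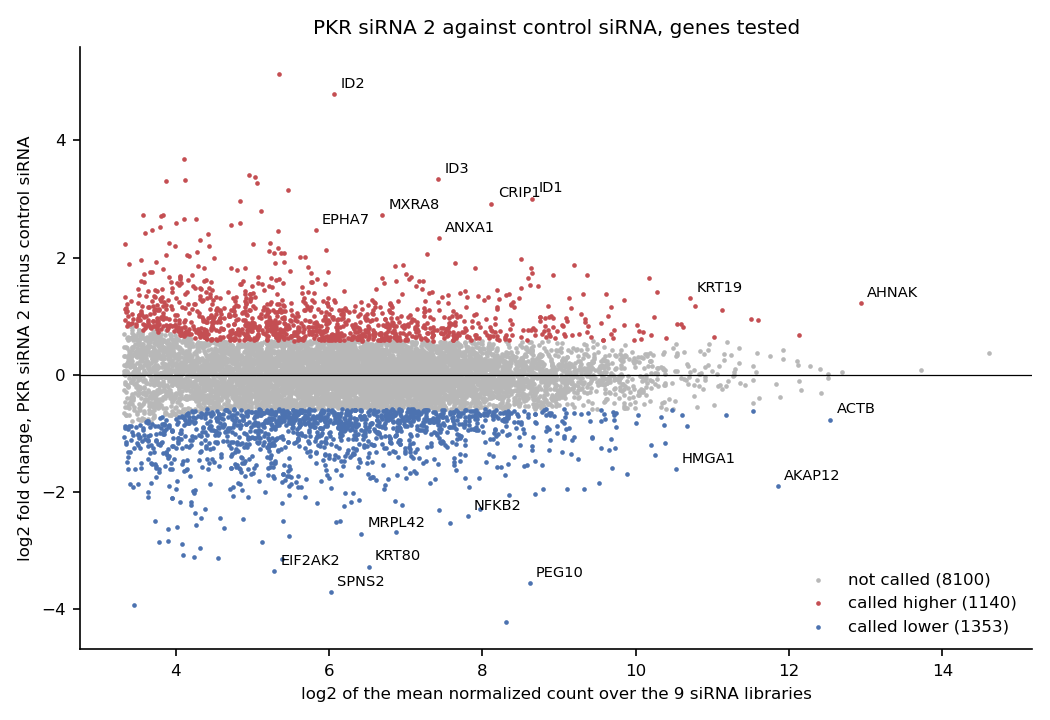
Each point is 1 of the 10593 genes tested, with the log2 of its mean normalized count over 9 libraries on the horizontal axis and its log2 fold change, PKR siRNA 2 minus control siRNA, on the vertical axis. Rises (red, 1140) and falls (blue, 1353) occur at all levels, with PEG10 and SPNS2 far below and the ID genes far above the other genes of their level.

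The 12 largest rises and falls were taken from called genes with a mean of at least 50 and no overlap between the groups, and ID2 led the rises. ID1, ID2 and ID3 encode inhibitors of basic helix-loop-helix transcription factors and are direct targets of BMP signalling through SMAD proteins. ID2 had 6.16, 6.45 and 2.84 normalized counts in the control libraries and 169, 143 and 175 with PKR siRNA 2 (log2 fold change 4.79, standard error 0.22; limma, adjusted p = 2.35e-32). The control mean of ID2 was under the minimum set for the mean over all libraries of the siRNA table. ID3 went from 38.0, 32.2 and 40.8 to 382, 362 and 407 (3.35), and ID1 from 117, 106 and 102 to 906, 782 and 961 (3.01). For each of the 3 genes, every PKR siRNA 2 library exceeded the highest control library several times over. The same genes stood at 2.58, 1.35 and 0.95 with PKR siRNA 1, which was set against the same control libraries. The levels with PKR siRNA 2 exceeded those with PKR siRNA 1 by 2.21 for ID2, 2.00 for ID3 and 2.06 for ID1 on the log2 scale (limma, adjusted p = 1.27e-14, 3.88e-26 and 5.32e-36).

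The BMP list held further changes beyond the ID genes. Of its 24 tested members, 7 rose (29.2%, against 10.8% of all genes) and 2 fell (8.33%, against 12.8%), with a median of 0.17. Of the 7 rises, 5 started from a control mean at or above the minimum and 2 from one under it. Of these 2, 1 was under it with PKR siRNA 1 too, and was tested only through its level with PKR siRNA 2. The share of 29.2% counts that gene. The inhibitory SMADs, which feed back on the pathway, were among the rises, with SMAD6 (1.03) and SMAD7 (0.81). The transcription factors ATOH8 (3.30), whose control mean of 2.70 was under the minimum, and DLX2 (1.47) made up the rest of the rises. The falls were BMP1 (-0.97), a protease of procollagens, and SMURF1 (-0.95), a ubiquitin ligase of SMAD proteins. The receptors BMPR1A (0.03), BMPR2 (0.17) and ACVR1 (-0.51) and the signal transducers SMAD1 (0.21), SMAD5 (0.17) and SMAD4 (-0.04) did not pass the thresholds. The ligands BMP2 and BMP4 were below the minimum level.

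Other large rises came from genes of varied function. CRIP1, a small LIM-domain protein, had 88.3, 106 and 78.7 normalized counts with control siRNA and 711, 671 and 692 with PKR siRNA 2 (2.92). MXRA8, a cell surface receptor for alphaviruses, went from 34.7 ± 3.98 to 234 ± 18.2 (2.72), and the Eph receptor EPHA7 from 22.3 ± 4.89 to 127 ± 4.09 (2.48). ANXA1, a calcium-dependent phospholipid-binding protein with anti-inflammatory roles, rose from 74.8 ± 8.48 to 381 ± 15.6 (2.34). That the groups of libraries did not overlap was a condition for choosing these genes, and it held for 54.3% of all genes tested. The remaining genes among the 12 largest rises were TM7SF2, a reductase of cholesterol synthesis (2.13), RASL11A, a RAS-like protein (2.06), the WNT receptor FZD4 (2.02), ISYNA1, which makes inositol phosphate (1.97), and the creatine kinase CKB (1.91). FZD4 has 18.9% of its exon bases overlapped by a gene of the other strand, which makes its counts less certain.

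Several of these genes did not follow with PKR siRNA 1. CRIP1 (-0.84), ISYNA1 (-0.66) and TM7SF2 (-1.59) were lower with that siRNA than with the shared control, past both thresholds. The difference between the PKR siRNAs was 3.76 for CRIP1, 2.63 for ISYNA1 and 3.72 for TM7SF2 (limma, adjusted p = 5.13e-44, 1.77e-42 and 9.52e-28). MXRA8 (0.30), EPHA7 (-0.05), ANXA1 (-0.24), RASL11A (0.20), FZD4 (-0.23) and CKB (-0.20) did not pass the thresholds with PKR siRNA 1.

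Of the 12 largest falls, 11 are described here. PEG10 is an imprinted gene that derives from a retrotransposon and encodes gag-like proteins. It fell from 661, 683 and 627 normalized counts with control siRNA to 51.7, 63.3 and 50.8 with PKR siRNA 2 (-3.55, standard error 0.08; limma, adjusted p = 1.76e-51). Its highest PKR siRNA 2 library lay more than 4-fold under its lowest control library. The change with PKR siRNA 1 was -0.50, and PKR siRNA 2 minus PKR siRNA 1 came to -3.06 on the log2 scale (limma, adjusted p = 4.28e-47).

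SPNS2, which exports sphingosine-1-phosphate, had 149, 142 and 147 normalized counts in control and 10.9, 6.43 and 15.0 in PKR siRNA 2 libraries (-3.71), with 23.9% of its exon bases overlapped by a gene of the other strand. The keratin gene KRT80 fell from 195 ± 13.1 to 19.3 ± 2.06 (-3.27). MRPL42, a protein of the mitochondrial ribosome, fell from 119 ± 21.5 to 17.3 ± 2.10 (-2.71), and was level with PKR siRNA 1 (0.02). No overlap between the control and PKR siRNA 2 libraries was a condition for choosing these genes too. SH3PXD2A, a scaffold of invadopodia (-2.69), the phospholipase PLCH2 (-2.53), the metalloprotease ADAM19 (-2.52) and the deubiquitinase OTUB2 (-2.49) came next. NFKB2, the p100 precursor of the alternative NF-kB pathway (-2.40), ERO1A, an oxidase of the endoplasmic reticulum (-2.30), and the sorting receptor SORL1 (-2.29) complete the account. Of these, SPNS2 (-1.94), KRT80 (-1.66), PLCH2 (-1.82), ADAM19 (-1.79), NFKB2 (-0.85) and SORL1 (-2.82) also fell with PKR siRNA 1, whereas SH3PXD2A (-0.12) and OTUB2 (0.12) did not pass with it.

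**Figure D2:**
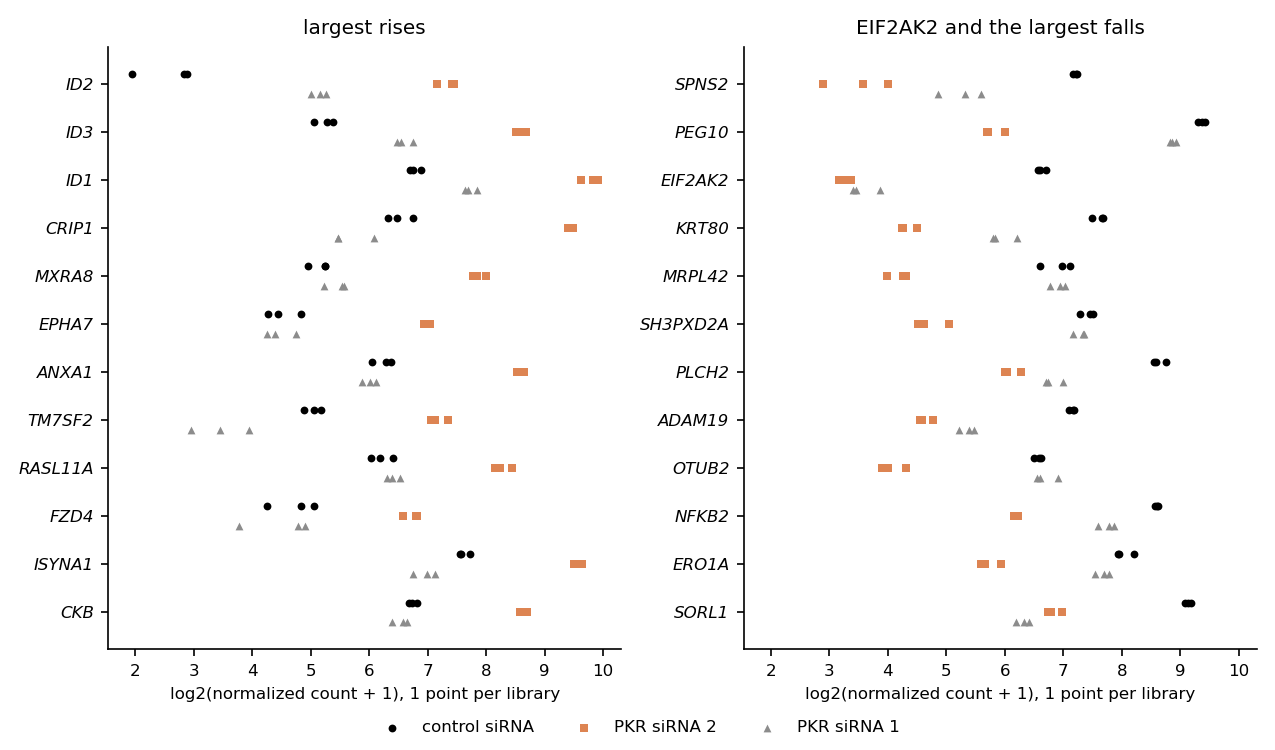
Level of the 12 genes with the largest rise (left) and of EIF2AK2 with 11 of the 12 genes of the largest fall (right), as log2 (normalized count + 1) on the horizontal axis, 1 point per library. Squares (PKR siRNA 2) and circles (control siRNA) do not overlap for any gene, which was a condition for choosing all but EIF2AK2. Triangles (PKR siRNA 1) lie near the controls for EPHA7, ANXA1, MRPL42 and OTUB2.

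The 7 bases AAGTAAT, which pair with the seed of the PKR siRNA 2 guide, were sought in 3′ UTRs of the mRNA strand (GENCODE release 44, canonical transcripts, at least 50 bases). Of the 10593 genes tested, 10150 had such a UTR and 1676 of these (16.5%) held at least 1 match. Among the 11 large falls described above 5 genes held a match, and among the 12 largest rises 1 did, EPHA7. Sites of these 6 genes are shown, since they carry the match among the largest changes. Capitals mark the match, and coordinates are those of hg38.
PEG10 site 1 (chr7:94668268-94668286, plus strand): atgttaaggatAAGTAATt
PEG10 site 2 (chr7:94668770-94668788, plus strand): atcaaatcgtgAAGTAATa
PEG10 site 3 (chr7:94669128-94669146, plus strand): taatcaagtttAAGTAATa
PEG10 site 4 (chr7:94669179-94669197, plus strand): gagggactattAAGTAATt
MRPL42 site 1 (chr12:93501299-93501317, plus strand): aatatatagtaAAGTAATa
MRPL42 site 2 (chr12:93501352-93501370, plus strand): acttttatataAAGTAATt
SH3PXD2A site 1 (chr10:103599551-103599569, minus strand): taagagaaaaaAAGTAATt
SH3PXD2A site 2 (chr10:103599230-103599248, minus strand): cccagtgctgtAAGTAATa
ERO1A site (chr14:52643364-52643382, minus strand): actgtgagtaaAAGTAATa
SORL1 site 1 (chr11:121632477-121632495, plus strand): gacttttggacAAGTAATt
SORL1 site 2 (chr11:121633281-121633299, plus strand): tcgtcacagccAAGTAATa
EPHA7 site (chr6:93241515-93241533, minus strand): tccctaaggaaAAGTAATc
In PEG10 the sites begin at bases 3745, 4247, 4605 and 4656 of a 3′ UTR of 5161 bases. The canonical 3′ UTR of MRPL42 holds 4 matches, of which 2 lie beyond the end of the gene model used in the deposited table and are not shown. The 3′ UTR of EIF2AK2 itself holds 1 match, apart from the target site. PEG10, MRPL42, SH3PXD2A and ERO1A did not pass the thresholds with PKR siRNA 1, whereas SORL1 fell with both. ID1, ID2, ID3, SPNS2, KRT80, PLCH2, ADAM19, OTUB2 and NFKB2 hold no match.

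Over all genes, those with a match were lower more often. With at least 1 match 22.8% fell and 7.7% rose, and without a match 11.1% fell and 10.9% rose. The median log2 fold change was -0.15 with and 0.00 without a match. It was -0.14 over the 1276 genes with 1 match, -0.19 over the 294 with 2 and -0.29 over the 106 with 3 or more. Where the match was followed by the base opposite the start of the guide, AAGTAATA, 30.6% of 559 genes fell. Seen from the other side, 28.9% of the genes that fell held a match, against 12.3% of those that rose and 15.0% of those not called.

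UTRs with a match were longer (median 3440 bases) than those without (1164), so the shares were also taken within classes of length. In UTRs of 50 to 1000 bases 36.3% of the genes with a match and 11.2% of those without fell. The shares were 25.6% and 10.8% from 1000 to 2000 bases, 23.2% and 10.9% from 2000 to 4000 bases, and 18.9% and 11.6% above that, so the genes with a match fell more often in each class. UTRs with a match also held more A and T (median 63.2% against 55.7%). For PKR siRNA 1, whose guide has another sequence, the medians were -0.05 with and -0.01 without a match, and 15.4% and 12.4% fell. Matches to the seed of the other strand of PKR siRNA 2, TTAAGAT, went with a share of falls of 10.3% where no match to the guide was present. These shares are descriptions without a test, a match does not show that the siRNA bound there, and whether pairing of the seed took part in any single fall was not tested.

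**Figure D3:**
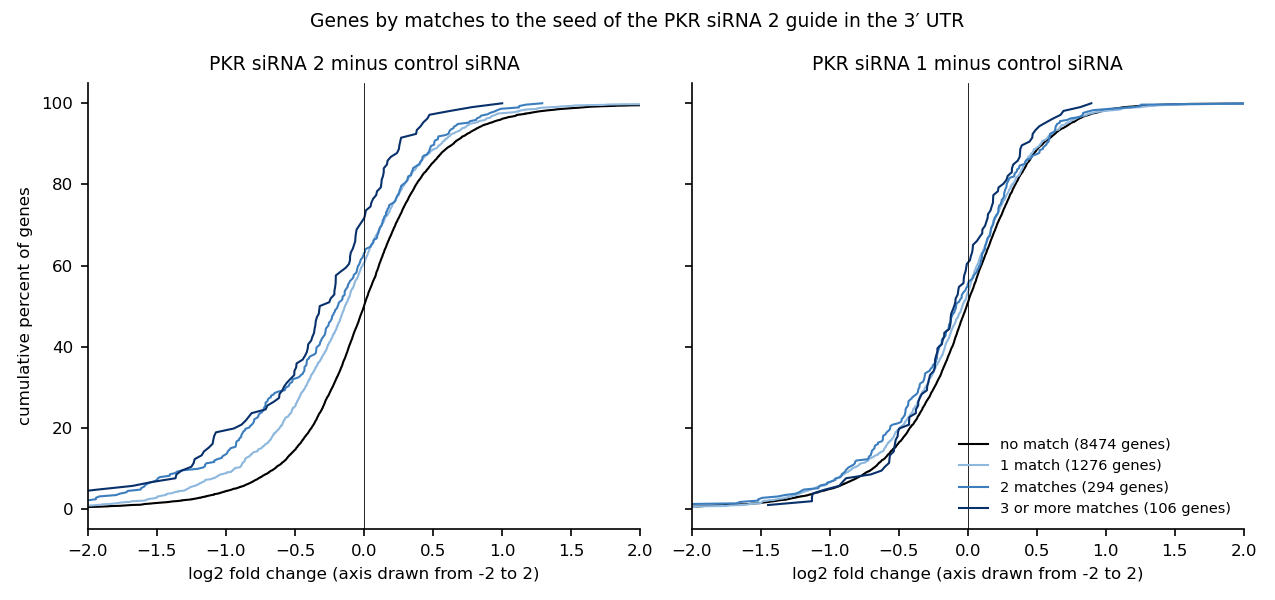
Cumulative percent of genes (vertical axis) by log2 fold change (horizontal axis) for genes with 0, 1, 2 and 3 or more matches to the seed of the PKR siRNA 2 guide in the 3′ UTR, with PKR siRNA 2 (left) and PKR siRNA 1 (right). On the left the curves shift to lower values as the matches increase, from a median of 0.00 to -0.29, and on the right they lie closer together.

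Targets of NF-kB had the lowest median of the 45 gene lists. NF-kB factors drive inflammatory and survival genes, and RELB and NFKB2 form the alternative branch of the pathway. Of 24 members tested 14 fell and 0 rose, where 12.8% and 10.8% of all genes did, and 22 of the 24 had a negative fold change (median -0.93). In limma 2 members were higher at an unadjusted p under 0.05, and DESeq2 and edgeR called 0 higher. RELB had 80.1, 84.9 and 87.2 normalized counts in control and 9.95, 11.8 and 13.2 in PKR siRNA 2 libraries (-2.76), and NFKB2 390.2, 379 and 387 and 73.6, 71.8 and 70.5 (-2.40). The inhibitor NFKBIE fell from 102 ± 6.47 to 29.3 ± 3.95 (-1.76), and the membrane-bound chemokine CX3CL1 from 55.1 ± 8.65 to 17.3 ± 2.42 (-1.61). For these 4 genes the groups did not overlap. The factor RELA, which defines the classical branch, was at 0.37, NFKB1 at -0.44, and the rapidly induced inhibitor NFKBIA at -0.06. Of the 14 genes that fell, 1 held a match to the seed in its 3′ UTR, and the median of the 20 members without a match was -1.05. Under PKR siRNA 1, 11 members fell and 2 rose (median -0.54).

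Cytokine genes were lower too. Of the interleukins, chemokines and their receptors, 8 of 84 listed were tested, 5 fell and none of the others rose in limma, DESeq2 or edgeR or at an unadjusted p under 0.05. The falls were IL32 (-3.92), CX3CL1 (-1.61), IL18 (-1.31), IL4R (-1.09) and IL6R (-1.09), where IL32 is a proinflammatory cytokine and IL18 a cytokine of the inflammasome. IL32 had 29.8, 18.3 and 21.8 normalized counts with control siRNA and 0.99, 0 and 0.94 with PKR siRNA 2, or 69 reads against 2 in all, a ratio of 35 with an exact 95% interval of 9.33 to 295 that covers counting error only. IL32 and CX3CL1 are counted in the NF-kB list as well. CCL2, CXCL1 and IL11 were at -0.49, -0.32 and -0.03 and did not pass the thresholds. Interferon-stimulated genes had 2 rises and 6 falls among 24 tested of 41 (median -0.28). IRF7, a master factor of the interferon response, rose from 25.4 ± 3.09 to 73.9 ± 5.49, while IRF1 (-1.09), the RNA sensor OAS3 (-0.90) and IFIT1 (-0.76) fell. In antigen presentation by MHC class I, 5 of 17 members fell and 1 rose (median -0.36). The falls were the immunoproteasome subunits PSMB8 (-1.42) and PSMB9 (-1.03), the proteasome activator PSME2 (-0.76), the heavy chain HLA-B (-1.07) and the peptide transporter TAP2 (-0.64), and the rise was the trimming peptidase ERAP1 (0.60). Without PKR siRNA 2 library 3 the values of PSMB9 (-0.56), TAP2 (-0.56) and ERAP1 (0.53) no longer passed, and leaving out control library 3 gave -0.58 for TAP2 and 0.54 for ERAP1, and control library 2 0.58 for ERAP1. HLA genes are near-identical, and PSMB8 has 12.8% of its exon bases overlapped by a gene of the other strand, so these values are uncertain.

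**Figure D4:**
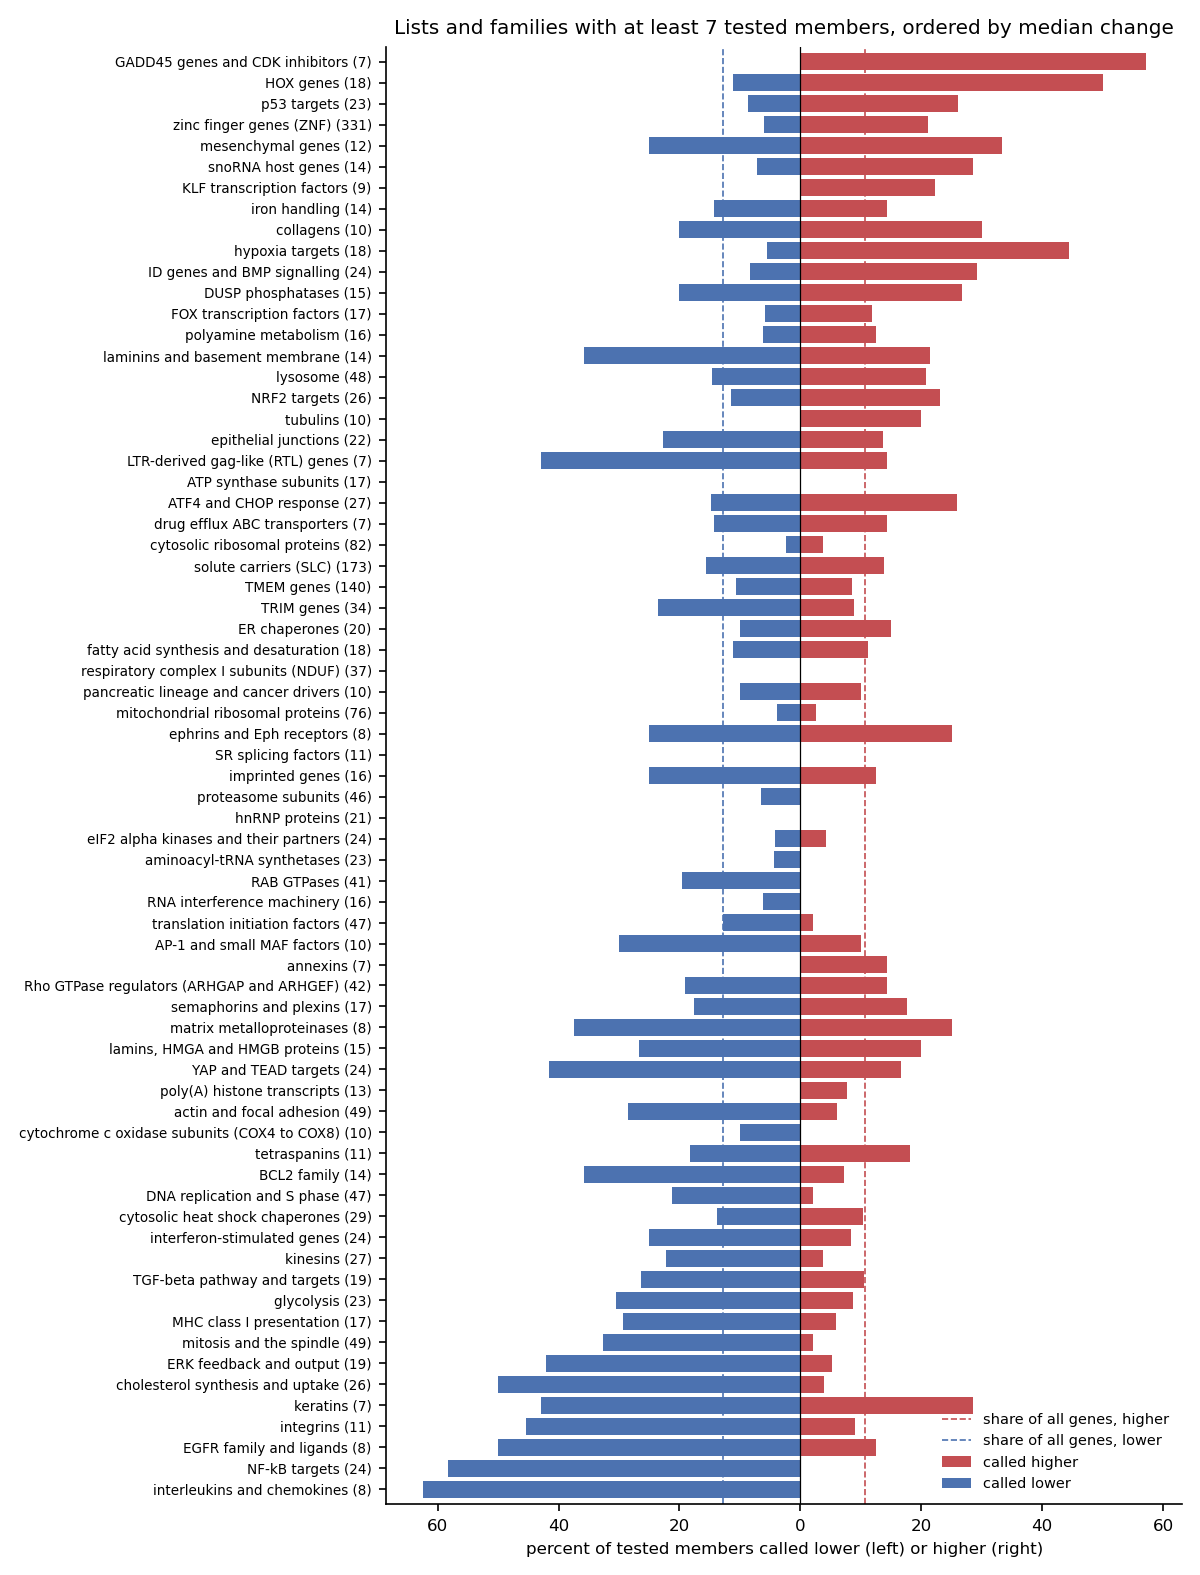
Percent of tested members that rose (red, right) or fell (blue, left) with PKR siRNA 2 for each gene list or family with at least 7 tested members (number in brackets), the cell type marker lists left out, ordered by median log2 fold change. Dashed lines mark the shares over all genes, 10.8% and 12.8%. Rises reach 57.1% for the GADD45 genes and CDK inhibitors and 50% for HOX genes (top), and the bars of NF-kB targets and cytokines (bottom) lie on the side of falls.

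The integrated stress response, which acts downstream of eIF2 phosphorylation, was mixed. Of 27 targets of ATF4 and CHOP tested, 7 rose and 4 fell (median 0.05). NUPR1, a stress-induced chromatin protein of pancreatic cells, went from 6.16, 10.7 and 5.69 to 80.6, 78.3 and 77.1 normalized counts (3.27). The control mean of NUPR1 was under the minimum level. DDIT4, an inhibitor of mTORC1, went from 120.1, 87.0 and 140.3 to 398, 403 and 410.0 (1.82). Each PKR siRNA 2 library lay above each control for both genes. The transcription factors ATF5 (1.36), ATF3 (1.21), DDIT3, which encodes CHOP (0.83), and ATF4 itself (0.81) rose too. The falls were the serine synthesis enzyme PHGDH (-0.86), the cystine carrier SLC7A11 (-0.74), STC2 (-0.75) and SESN2 (-0.61). SESN2 did not pass without control library 3 (-0.53) or PKR siRNA 2 library 3 (-0.49), nor DDIT3 without control library 2 (0.58). With PKR siRNA 1, 13 members rose and 0 fell (median 0.45). Aminoacyl-tRNA synthetases, many of which are ATF4 targets, had 0 rises and 1 fall among 23, the fall being that of the accessory protein AIMP1 (-0.89). Among 20 genes of chaperones and quality control in the endoplasmic reticulum, 3 rose and 2 fell. HERPUD1 (1.13) and CANX (0.88), the latter the lectin chaperone calnexin, were among the rises, and SDF2L1 (-0.87) and EDEM1 (-0.70) were the falls.

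Genes of growth arrest were higher. Of the GADD45 genes and CDK inhibitors, which halt the cell cycle under stress, 7 of 11 were tested, 4 rose and 0 fell (median 0.78), and 0 were lower at an unadjusted p under 0.05 in limma or called lower by DESeq2 or edgeR. The rises were GADD45A (1.64), CDKN1A (1.25), GADD45B (1.08) and CDKN2C (0.78). GADD45A stood at 68.8, 51.6 and 82.5 normalized counts with control siRNA and 233, 193 and 205 with PKR siRNA 2, and GADD45B at 58.5, 52.6 and 54.0 and 125, 106 and 121. Neither gene's groups overlapped. Of 23 p53 targets, 6 rose and 2 fell (median 0.30), with the polo-like kinase PLK2 (0.94) and the oxidoreductase TP53I3 (0.70) among the rises. GADD45A and CDKN1A are counted among these rises as well. The antiproliferative regulator BTG2 (3.33) and TP53INP1 (2.10) had control means of 3.75 and 9.02, under the minimum of 10, and were tested only through their level with PKR siRNA 2. The other 4 rises started at or above the minimum. The death receptor FAS fell (-1.87). With PKR siRNA 1 the list of p53 targets had 3 rises and 2 falls (median -0.04).

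Genes of the cell cycle were lower, by small amounts. In the list of mitosis and the spindle, 16 of 49 members fell and 1 rose, 46 had a negative fold change, and the median was -0.43. The kinesin KIF14 went from 184, 161 and 174 to 68.6, 66.5 and 83.7 normalized counts (-1.24), and cyclin A2, encoded by CCNA2, from 115, 118 and 95.7 to 57.7, 61.1 and 48.0 (-0.97), without overlap. The spindle protein DLGAP5 fell (-0.99), as did the kinase that drives mitosis, CDK1 (-0.79). The exception was the phosphatase CDC25B, which rose from 404 ± 17.3 to 892 ± 47.0 (1.14). In the list of DNA replication, 10 of 47 fell and 1 rose (median -0.27). The falls included GMNN, which blocks repeated licensing (-0.95), the ligase LIG1 (-0.87) and CHAF1B of the chromatin assembly factor (-0.86), and the rise was ORC6 of the origin recognition complex (0.85). The medians of these lists with PKR siRNA 1 were 0.26 and 0.07, with 7 rises and 0 falls in mitosis. Between the PKR siRNAs, KIF14 differed by -0.91, CCNA2 by -1.23 and DLGAP5 by -1.51 on the log2 scale (limma, adjusted p = 4.48e-11, 6.08e-14 and 7.80e-23). Of the mitosis genes that fell with PKR siRNA 2, 2 of 16 held a seed match.

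In the BCL2 family, which sets the threshold for apoptosis, 5 of 14 genes fell and 1 rose. Genes that protect cells were among the falls, with BCL2A1 (-3.13), MCL1 (-1.27) and BCL2L1 (-0.73), as were the proapoptotic BID (-1.13) and PMAIP1 (-0.81). MCL1 stood at 508, 434 and 457 and 183, 196 and 197 normalized counts. BCL2A1, an NF-kB target, went from 24.8 ± 5.71 to 2.05 ± 1.14, a level of few reads, and BCL2L1 has 36.3% of its exon bases overlapped by a gene of the other strand. PMAIP1 did not pass without control library 2 (-0.56) or PKR siRNA 2 library 3 (-0.57). The rise was that of the BH3-only gene BMF (1.31). Among the 5 falls 2 hold a seed match.

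ERK target genes were lower. Of 19 ERK target and feedback genes, 8 fell and 1 rose (median -0.56). The transcription factor ETV5 fell from 164, 184 and 171 to 39.8, 40.7 and 33.9 normalized counts (-2.15), the phosphatase DUSP5 from 237, 199 and 255 to 74.6, 82.6 and 64.0 (-1.63) and cyclin D1, encoded by CCND1, from 734, 766 and 785 to 350.1, 387 and 363 (-1.05). No library of PKR siRNA 2 reached the controls for these genes. None of the 8 ERK target and feedback genes that fell held a seed match. Under PKR siRNA 1, DUSP5 was at 0.40 and ETV5 at -0.33, and the differences between the PKR siRNAs were -2.03 and -1.82 (limma, adjusted p = 1.72e-30 and 4.07e-22). Ligands of the EGFR family of receptors, which act upstream of ERK, fell as well. These were AREG (-2.59), EREG (-2.18), NRG1 (-1.36) and HBEGF (-1.01), which with the rise of the receptor ERBB2 (0.86) were the calls among 8 genes tested of 15. Of these 4 falls 2 held a seed match. The median was -0.69 over the 8 genes and -0.37 over the 5 without a match. EGFR itself was at -0.10. MYC, a growth-promoting transcription factor, was at 0.56. AP-1 factors followed in part, with falls of FOSL1 (-1.11), JUN (-1.09) and MAFF (-1.32) and a rise of FOSL2 (0.65, but 0.57 and not past the threshold without control library 2) among 10 genes.

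Targets of YAP and TEAD, which respond to cell contact and tension, moved in both directions, with 4 rises and 10 falls among 24 (median -0.16). CYR61, a matricellular protein, fell from 1758, 1644 and 1807 to 516, 521 and 577 normalized counts (-1.69), and the ectonucleotidase NT5E from 420.0, 419 and 409 to 97.5, 98.6 and 106 (-2.03), while the membrane protein CRIM1 rose from 665, 598 and 596 to 1376, 1432 and 1354 (1.16). NT5E went the other way with PKR siRNA 1 (0.78), and the PKR siRNAs differed by -2.82 (limma, adjusted p = 1.42e-47). In the TGF-beta list 5 of 19 genes fell and 2 rose. The falls were PMEPA1 (-1.42), LTBP1 (-1.32), CTGF (-0.92), TGFBR1 (-0.89) and TGFBI (-0.61), of which PMEPA1 is a target that limits the pathway and LTBP1 binds the latent ligand. TGFBR3, the coreceptor betaglycan (1.20), and the SMAD corepressor SKI (0.63) rose. TGFBI did not pass without control library 2 (-0.58), control library 3 (-0.57) or PKR siRNA 2 library 2 (-0.52), nor SKI without PKR siRNA 2 library 3 (0.58).

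**Figure D5:**
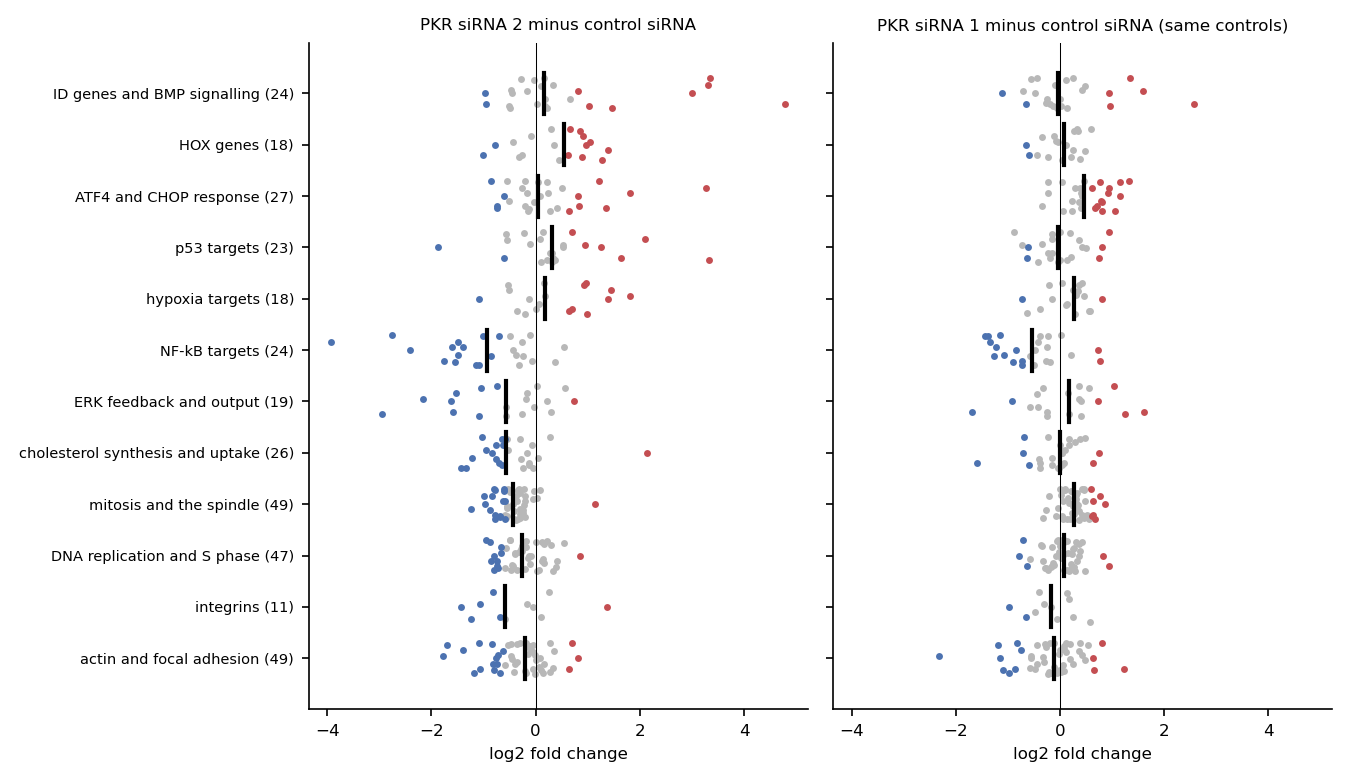
Log2 fold change (horizontal axis) of each tested member of 12 gene lists with PKR siRNA 2 (left) and PKR siRNA 1 (right), both against the same control libraries, with rises in red, falls in blue, uncalled genes in grey and the list's median as a black bar. The median of NF-kB targets is -0.93 on the left and -0.54 on the right, and that of the mitosis list -0.43 and 0.26.

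Genes of cell adhesion and the cytoskeleton were lower in part. Of 11 integrins tested, 5 fell and 1 rose (median -0.58). Of the 5 falls 2 hold a seed match, and the median of the 8 integrins without a match was -0.37. The falls were ITGA2 (-1.43), ITGA10 (-1.25), ITGAV (-1.06), ITGA5 (-0.81) and ITGA3 (-0.69), all alpha chains, and the rise was the beta chain ITGB3 (1.37). ITGA2, a collagen receptor, stood at 816, 776 and 826 in control and 299, 279 and 319.8 in PKR siRNA 2 libraries. In the list of actin and focal adhesion genes 14 of 49 fell and 3 rose (median -0.20). The focal adhesion protein ZYX went from 513, 519 and 476 to 153, 142 and 165 normalized counts (-1.71) and the myosin light chain MYL9 from 68.8, 64.5 and 78.7 to 21.9, 24.7 and 14.1 (-1.79), neither with overlap. The myosin kinase MYLK (-1.39), TLN2, a talin (-1.19), and ACTB, cytoplasmic actin (-0.77), fell too.

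Laminin chains and their partners split. LAMC1, the gamma chain of most laminins, rose from 306, 339 and 303 to 784, 806 and 772 (1.31), as did the linker NID1, from 426, 474 and 461 to 1222, 1164 and 1166 (1.38). LAMB3, a beta chain, fell from a low level (-1.60), and LAMA3 was at -0.01. In all, 3 of 14 genes of the basement membrane rose and 5 fell. Collagens were sparse, with 10 of 27 tested. COL9A3 (2.45), COL6A1 (1.39) and COL11A1 (0.77) rose, and COL7A1, the anchoring fibril collagen (-1.72), and COL12A1 (-1.03) fell. COL12A1 was not called without control library 1 (-0.84), control library 2 (-1.03) or PKR siRNA 2 library 3 (-0.61). These values are past the fold threshold, so its call was lost on the adjusted p. The urokinase gene PLAU fell from 1318, 1130 and 1229 to 350.1, 335 and 331 (-1.85), with 28.6% of its exon bases overlapped by a gene of the other strand. Among proteases of the matrix and their inhibitors, MMP1 (-2.45), MMP2 (-1.51) and TIMP1 (-1.76) fell and MMP14 (0.84) and MMP15 (1.43) rose.

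Epithelial genes did not move together. KRT19, a keratin of ductal cells, rose from 1250, 1206 and 1186 to 2980, 3010 and 3058 (1.31) and KRT8 from 2504, 2571 and 2508 to 4730, 4941 and 5105 (0.96), while KRT80 (-3.27), KRT7 (-1.86) and KRT15 (-0.83) fell. With PKR siRNA 1, KRT19 (-0.60) and KRT8 (-0.97) were lower than control, and the PKR siRNAs differed by 1.92 and 1.93 (limma, adjusted p = 2.18e-48 and 2.38e-53). EPCAM, the epithelial adhesion molecule, fell from 83.2, 120.3 and 104 to 11.9, 10.7 and 9.40 (-3.14), and E-cadherin, encoded by CDH1, rose from a low level of 18.7 ± 3.40 to 56.1 ± 5.45 (1.54). Of 22 genes of epithelial junctions 3 rose and 5 fell, among the falls the tight junction protein CGN (-1.54) and the desmosomal PKP3 (-1.41). Mesenchymal genes were as mixed. S100A4 (1.34), MMP14 and the repressor ZEB1 (0.80) rose, MMP2 fell, VIM was at 0.15 (a gene of the other strand overlaps part of its exons), and CDH2 (0.61) was just past the fold threshold, and not without PKR siRNA 2 library 3 (0.56).

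Genes of sterol synthesis were lower. Of 26 genes of cholesterol synthesis and uptake 13 fell and 1 rose, and 23 had a negative fold change (median -0.57). INSIG1, which retains SREBP in the endoplasmic reticulum, fell from 187, 161 and 189 to 59.7, 81.5 and 58.3 (-1.43). The late enzymes EBP and DHCR7 fell from 104, 117 and 112 to 45.8, 40.7 and 43.3 (-1.34) and from 492, 454 and 469 to 212, 198 and 197 (-1.22). The groups of all 3 genes were apart. Further up the pathway FDPS, which makes farnesyl diphosphate, fell (-1.03, 12.6% of its exon bases overlapped by a gene of the other strand). TM7SF2, a sterol reductase, was the only rise, from 28.8, 32.2 and 35.1 to 138, 132 and 162. Of the 13 falls 4 held a seed match, and the median of the 22 members without a match was -0.41. With PKR siRNA 1 the list had a median of 0.01. Fatty acid synthesis showed no such pattern, with rises of SREBF1 (0.86) and FADS3 (0.80) and falls of ME1 (-1.55) and LPIN1 (-0.96) among 18 genes. ME1 and LPIN1 each hold a seed match.

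In glycolysis 7 of 23 genes fell and 2 rose (median -0.35), with the lactate carrier SLC16A3 going up from 497, 559.7 and 556 to 1398, 1370 and 1403 (1.37) and PFKM (-1.01), ENO2 (-0.87) and HK2 (-0.82) down. Hypoxia targets rose in 8 and fell in 1 of 18 cases. HILPDA (1.45), a lipid droplet protein, and the peptide hormone ADM (1.39, from 242, 214 and 214 to 576, 611 and 567) rose, ANGPTL4 fell (-1.08), and VEGFA was at -0.12. Of the NRF2 targets 6 of 26 rose, among them heme oxygenase HMOX1 (198, 157 and 192 to 523, 493 and 559, 1.53) and UGDH (1.71), and 3 fell, ME1 (-1.55), ABCC3 (-1.33) and SLC7A11 (-0.74). Of these 3 falls 2 hold a seed match. Of the 6 rises, 1 had control and PKR siRNA 1 means under the minimum of 10, and was tested only through its level with PKR siRNA 2. In the lysosome list 10 of 48 rose and 7 fell, and 3 of the 7 falls hold a seed match. The membrane protein LAMP2 (1.51) and the protease CTSH (1.26) were the largest rises, and the sulfatase IDS fell from 1010, 1062 and 962 to 245, 274 and 268 (-1.94). HMOX1 led the iron list (2 rises and 2 falls of 14), where the ferrireductase STEAP3 fell (-1.18). Polyamine genes had 2 rises, AMD1 (0.80) and ANTXR1 (0.69), and 1 fall, OAZ2 (-0.83), among 16.

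Chromatin proteins of the HMG family were among the abundant genes that fell. HMGA1 went from 2029, 2085 and 2084 to 701, 624 and 702 normalized counts (-1.61) and HMGA2 from 657, 583 and 562 to 189, 207 and 214 (-1.56). Both bind AT-rich DNA and mark aggressive carcinomas, and no library of PKR siRNA 2 reached a control. The nuclear envelope proteins TMPO (-1.08) and LBR (-0.83) fell as well, and LMNB1 (0.73), HMGN1 (0.69) and HMGN2 (0.77) rose. HMGA2, TMPO and LBR each hold a seed match and HMGA1 holds none. Of the imprinted genes 16 of 33 were tested, with falls of PEG10 (-3.55), SLC22A18 (-1.21), PHLDA2 (-0.95) and MEG3 (-0.76) and rises of H19 (2.25) and PLAGL1 (1.17). H19, a long RNA, went from 18.6 ± 4.10 to 90.9 ± 7.22 and in the other direction with PKR siRNA 1 (-2.35), and it has 33.2% of its exon bases overlapped by a gene of the other strand. SGCE, the neighbour of PEG10, was at -0.16. Other gag-derived genes changed less than PEG10, with 0.83 for RGAG4, -0.74 for C22orf29 and -0.60 for LDOC1L, the last of which did not pass without control library 2 (-0.52), PKR siRNA 2 library 2 (-0.48) or PKR siRNA 2 library 3 (-0.58).

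In the HOX clusters, which hold homeobox genes of body patterning, rises outnumbered falls. Of 18 tested, 9 rose and 2 fell (median 0.54), and none of the 18 holds a seed match. HOXC9 went from 33.9, 30.1 and 26.5 to 85.5, 83.6 and 73.4 normalized counts (1.40), HOXC10 from 124, 141 and 149.8 to 289, 288 and 276 (1.04) and HOXC6 from 34.9, 51.6 and 52.1 to 109, 115 and 112 (1.28), the last with 25.1% of its exon bases shared with a gene on the same strand. These groups did not overlap. HOXB9 fell from 98.6, 81.6 and 103 to 47.7, 36.5 and 55.5 (-1.02). The family had 0 rises and 2 falls (median 0.07) under PKR siRNA 1. Zinc finger genes leaned the same way. Of 331 tested 70 rose and 20 fell (median 0.28), among the rises ZNF217 (1.32), an oncogene of several carcinomas. Of the 70 rises, 57 started from a control mean at or above the minimum of 10 and 13 from one under it. Of these 13, 7 were under it with PKR siRNA 1 too, and were tested only through their level with PKR siRNA 2. Of the 266 zinc finger genes without a seed match 62 rose and 10 fell, and of the 58 with one 5 rose and 9 fell. Many of these genes are close copies of each other, and how reads that fit several copies were counted is not stated. Of 70 protocadherins, cell surface proteins of neural tissue, 65 were under the minimum level, and without it the family's median was -0.0019. Of the rises among the other 5, PCDH18 (2.01) and PCDH7 (1.22) started from control means of 25.9 and 72.5, whereas PCDH9 (2.40) and PCDH20 (1.97), at 8.19 and 6.06, were tested only through their level with PKR siRNA 2, so no share of the family is read from them.

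Several families that every cell needs held few calls. Of 82 genes of the cytosolic ribosome 3 rose and 2 fell (median 0.04), and apart from RPS27L (1.52) and RPL39L (-1.20), which are not standard subunits, the calls were RPS12 (0.73), RPL10 (0.65, with 42.7% of its exon bases overlapped by a gene of the other strand) and RPL14 (-0.90). In the mitochondrial ribosome 2 of 76 rose and 3 fell, MRPL42 by far the most, followed by MRPL33 (-1.13). None of the 37 tested subunits of complex I, 17 of ATP synthase, 11 SR proteins and 21 hnRNP proteins passed both thresholds in limma. At an unadjusted p under 0.05 in limma there were 5 higher and 11 lower in complex I, 6 and 2 in ATP synthase, 1 and 5 among SR proteins and 5 and 9 among hnRNP proteins, and DESeq2 and edgeR each called 1 ATP synthase gene higher and no other of these. In the proteasome the 3 falls were the immune-type PSMB8, PSMB9 and PSME2 named above. Genes with an EIF symbol take in the eIF2 kinases and EIF4E-binding proteins besides translation factors. They had 1 rise, that of EIF2AK3, and 6 falls among 47, the falls being 12.8% as over all genes. The falls include EIF2AK2, the target of the siRNA, and were led after it by EIF5A2 (-1.38) and EIF4EBP2 (-0.93). Of the 6 falls 4 hold a seed match, EIF2AK2 among them. The RNA interference machinery had 1 call among 16, a fall of DICER1 (-0.97) from 244, 244 and 249 to 116, 139 and 119, and AGO2, the slicing Argonaute, was at 0.07.

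Smaller families held single strong changes. The motor gene KIF5B fell from 792, 711 and 801 to 207, 205 and 186 (-1.94) and holds 3 seed matches, in a family with 6 falls and 1 rise among 27 kinesins. RAB GTPases of vesicle transport had 0 rises and 8 falls among 41, with 6 higher at an unadjusted p under 0.05 in limma and 0 called higher by DESeq2 or edgeR. Among the falls, 4 of which hold a seed match, were RAB29 (-1.26) and RAB27B (-1.09). EPHB6 (-2.01) and EPHB2 (-1.13) fell while EPHA7 and EFNB2 (1.52) rose. S100A11 (-1.49) and S100A16 (-1.35) fell while S100A4 rose. The tubulins TUBB2A (1.58) and TUBB3 (1.18) rose from 31.5 ± 4.43 to 96.3 ± 13.5 and from 365 ± 23.7 to 829 ± 32.1. Semaphorin SEMA7A fell (-1.77) and SEMA3F (1.03) and SEMA3C (0.88) rose. The exchange factor ARHGEF16 (-2.09) and the ubiquitin ligase TRIM16 (-1.89) were the largest falls of their families. MAP kinase phosphatases split, with DUSP2 (2.20, from a control mean of 6.97, under the minimum) and DUSP9 (1.71) up and DUSP5 and DUSP6 (-1.59) down. Of the snoRNA host genes 4 of 14 rose and SNHG16 fell (-0.92). Cytosolic heat shock chaperones had 3 rises and 4 falls among 29, and solute carriers 24 and 27 among 173. Of the 24 rises of solute carriers, 1 was tested only through its level with PKR siRNA 2.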

How the data were processed

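RNA-seq of PANC-1 cells was analysed from the tables of normalized signal deposited by the authors, who mapped paired reads to hg38 with TopHat, counted them per gene with featureCounts and divided each library by a TMM factor in TCC. Versions, annotation and the strand setting are not given in the sources used here, and libraries were made with a directional kit. Each signal value deposited by the authors was a whole multiple of the value of 1 read, within 0.01 reads for 100% of values, so reads could be recovered for count-based alternatives. Genes with a mean of at least 10 over the 9 libraries of the siRNA table (3 for each siRNA) were tested on log2 (value + 1) in limma 3.58.1 (R 4.3.3), fitted over all 9 libraries, with Benjamini-Hochberg adjustment over all tested genes. A call needed an adjusted p under 0.05 and a change of over 1.5-fold. The scripts were tested on simulated data. The text names EIF2AK2, PEG10, ID1, the 12 largest rises and falls (mean of at least 50, no overlap), and up to 4 members a list (mean of at least 30, largest change). Others, such as IL32, BTG2 or CDK1, were named for their role or after their values were seen. Some genes that the rule would name are not reported here, though they count in the totals. The comparison and the gene lists were chosen with earlier results of these data known. The siRNA sequence came from the study's methods, and its site and the 3′ UTRs were read from hg38 with GENCODE release 44. Alternatives were 2 count-based tests (edgeR 4.0.16, DESeq2 1.42.0), another rescaling, other minimum levels and pseudocounts, a fit of 6 libraries, a replicate block and leaving out each library. Exact intervals cover counting error only. The C16 table, normalized apart, enters only the closing values.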

Additional observations from a re-analysis of the deposited data

How the results depend on the processing

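Both counts of called genes stayed within 1.5 times under each of the 15 alternatives. DESeq2 called 1053 higher and 1170 lower, edgeR 1244 and 1313, a minimum mean of 30 called 783 and 1017 of 8348 genes, and no minimum 1366 and 1524 of 18230. Leaving out each library gave 1102 to 1139 higher and 1307 to 1354 lower. Of the 381 named genes, 15 lost and 15 gained a call under some alternative. Signs reversed for uncalled genes near 0: SOX4 (0.0069 in DESeq2, 0.0044 in edgeR, -0.089 to 0.057 without 1 library), LAMA3 (0.0040 under median-of-ratios rescaling, -0.18 to 0.22 without 1 library) and, over the fits without 1 library, SERPINB1 (-0.057 to 0.25), PCDHGC3 (-0.26 to 0.033), AGO2 (-0.033 to 0.15), BMPR1A (-0.028 to 0.093), IL11 (-0.32 to 0.26), NFKBIA (-0.17 to 0.054) and SMAD4 (-0.13 to 0.040). Of 78 list medians 23 changed sign under some alternative, none of them under another rescaling or count test. With no minimum level, where genes of few reads enter, the median of the interleukins and chemokines went from -1.09 to 0, that of protocadherins from 1.97 to -0.0019 and that of keratins from -0.57 to 0.39. The ATF4 list went from 0.05 to -0.02 without control library 2. A replicate block gave 1136 higher and 1353 lower. Same-numbered libraries did not deviate together (correlations of -0.0065, 0.011 and 0.0013), and not every library correlated best with its own number, so the number marks no pairing. Depths of 1602694 to 1848343 reads a library limit what can be seen in the 7637 genes with reads but under the minimum.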

Other observations

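Some of the most counted transcripts of the cells were among the calls, chosen here after their values were seen. AHNAK, a giant scaffold protein, rose from 5222 ± 464 to 12202 ± 29.6 normalized counts (1.23 on the log2 scale, mean ± SD of 3 libraries), and AKAP12, a scaffold for protein kinase A, fell from 6368 ± 153 to 1701 ± 36.4 (-1.90). The nuclear long RNAs MALAT1 and NEAT1 rose from 1554 ± 249 to 3320 ± 254 (1.10) and from 608 ± 57.8 to 1914 ± 113 (1.66). With PKR siRNA 1, MALAT1 was at 0.24 and NEAT1 at 0.64. The secreted lipid-binding protein MFGE8 rose (1.41), as did the lysosomal CTSD (0.94) and PSAP (0.69), and the tetraspanin-like TM4SF1 (-1.36) and the kinase IRAK1 of interleukin-1 signalling (-1.17) fell. None of the libraries of these genes overlapped between control siRNA and PKR siRNA 2.

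Further genes with 3 or more seed matches and large falls were MZT1, a small protein of the gamma-tubulin complex (-2.57), and TMBIM4, a Golgi membrane protein (-2.18).

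The inhibitor C16 at 800 nM was compared with DMSO in a separately normalized table of other libraries. Of the 12 rises with PKR siRNA 2 shown in the plot of largest changes, 9 had a value below 0 with C16, 2 a value above 0 and 1 was not tested there, and 8 fell by the same thresholds in limma. Of the 11 largest falls in that plot, 9 had a value above 0 and 2 below 0, and 6 rose and 1 fell. Over all 9963 genes tested with C16 at 800 nM, 11.6% rose and 14.1% fell by these thresholds. ID1 stood at -1.57, CRIP1 at -1.74, TM7SF2 at -3.13 and SPNS2 at 2.42 on the log2 scale, and PLCH2, which fell in both, at -1.85. Some other named rises also rose with C16, among them ATF3 (1.90), DDIT3 (0.80), HMOX1 (0.77) and GADD45A (0.69). These genes are in the study's own list of genes raised by both PKR siRNAs and by C16 in these same data. The named rises outside the plot were not tallied. The siRNA and the inhibitor were not tested against each other.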
